A study of Rattus norvegicus with 6 samples.

Results

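miR-21 was examined through both arms of its precursor, rno-miR-21 and rno-miR-21*, which were the 2 members found when the miRNA name of every spot on the array was compared with these names, out of 677 miRNAs on the array. Rat tendon-derived stem cells (rTDSCs), taken from patellar tendons of male Sprague Dawley rats aged 8 weeks, were grown on silicone plates coated with type I collagen. In the loading group the plates were stretched cyclically along 1 axis by 10%, at a frequency of 0.5 Hz and for 8 h daily, and in the non-loading group they stayed static, each for 7 days. RNA of 3 samples per group was labelled with Cy3 and hybridised to 1 Agilent rat miRNA array per sample. Colonies were pooled at the first passage, and nothing used here says that the replicates came from separate animals or cultures, so the p-values measure the spread between these samples, which may be technical.

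miR-21 is among the most abundant miRNAs of fibroblasts and other cells grown in culture. It is transcribed from its own promoter inside the Vmp1 gene region, responds to AP-1, STAT3 and TGF-β signalling, and lowers targets such as Pdcd4, Spry1 and Smad7. In fibrotic tissue it is known as a miRNA that favours fibroblast survival and matrix production. As in other precursors, the arm that is loaded into Argonaute is kept and the opposite arm is usually degraded.

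The mature sequences of RefSeq on GRCr8 are shown because the arrays name the arms in the older way, in which rno-miR-21 is the 5′ arm and rno-miR-21* the 3′ arm. Capitals mark the seed, bases 2 to 8, which pairs with targets.
rno-miR-21-5p: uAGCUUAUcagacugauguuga
rno-miR-21-3p: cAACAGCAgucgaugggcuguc
The 5′ arm lies at chr10:71902653-71902674 and the 3′ arm at chr10:71902615-71902636, both on the minus strand, in a hairpin of 92 bases. By start coordinate its gene comes after Tubd1 and before Vmp1, and gene ends were not compared. In that hairpin the arms take up bases 18 to 39 and 56 to 77, with 16 bases between them. None of the other 691 mature miRNAs of the table shared the seed of either arm, nor its bases 2 to 7, so the arms form 2 seed families without further members there.
The longest stretch that another miRNA of the table shared with the 5′ arm is set in capitals below.
rno-miR-21-5p: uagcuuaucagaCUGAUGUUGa
rno-miR-541-5p: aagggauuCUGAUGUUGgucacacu
This run had 9 bases, and rno-miR-541 was detected on 0 of the 6 arrays. The mature miRNA with the smallest edit distance to the 5′ arm was miR-101a-5p, at 7 changes.

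The 6 arrays lay on 1 slide scanned at 1 time, and each carried 13540 miRNA spots of 1644 probes. Between 140 and 186 miRNAs were detected per array by the scanner software. A probe's signal is the mean of its spot intensities, expressed as a multiple of the 75th percentile of the 173 probes that were detected on every array, and a miRNA's signal is the sum over its probes. That percentile, between 262.6 and 362.2 intensity units, is the unit of the scaled signals below. limma was applied to the 148 miRNAs that the software detected throughout the loading group, the non-loading group or both. RNA came from whole cultures, so fewer cells of a type and less RNA per cell cannot be told apart. The cells were checked against miRNAs typical of cell types. Of 5 mesenchymal miRNAs, 4 were tested, and miR-199a-3p, miR-214, miR-199a-5p and miR-143 ranked 2, 5, 20 and 23 by signal. The other, miR-145, was dim and not tested. It was detected on 3 arrays and ranked 165, with a scaled signal of at most 0.0382. None of 4 skeletal muscle, 6 epithelial, 2 neuronal and 1 liver miRNAs was detected on any array. Of 5 blood cell miRNAs only miR-223 was detected, on 5 arrays with a scaled signal of at most 0.0875, and the endothelial miR-126 was detected on all 6 with at most 0.0536. miR-223 and miR-126 were thus dim. Their log2 changes between the groups were 0.40 and 0.25 (adjusted p = 0.709 and 0.724 in limma), and their part in the results for miR-21 was not tested.

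rno-miR-21 gave the brightest signal of all 677 miRNAs on every one of the 6 arrays. In the non-loading samples its scaled signal was 60.1, 69.9 and 61.1 times the 75th percentile for replicates 1, 2 and 3. Under mechanical loading it was 69.4, 70.5 and 72.1. The mean was 63.7 ± 5.39 (SD, n = 3) without loading and 70.7 ± 1.37 (SD, n = 3) with loading. All loading samples and non-loading replicate 2 thus lay close together, while non-loading replicates 1 and 3 were lower, and the groups overlapped because non-loading replicate 2 exceeded loading replicate 1.

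**Figure D1:**
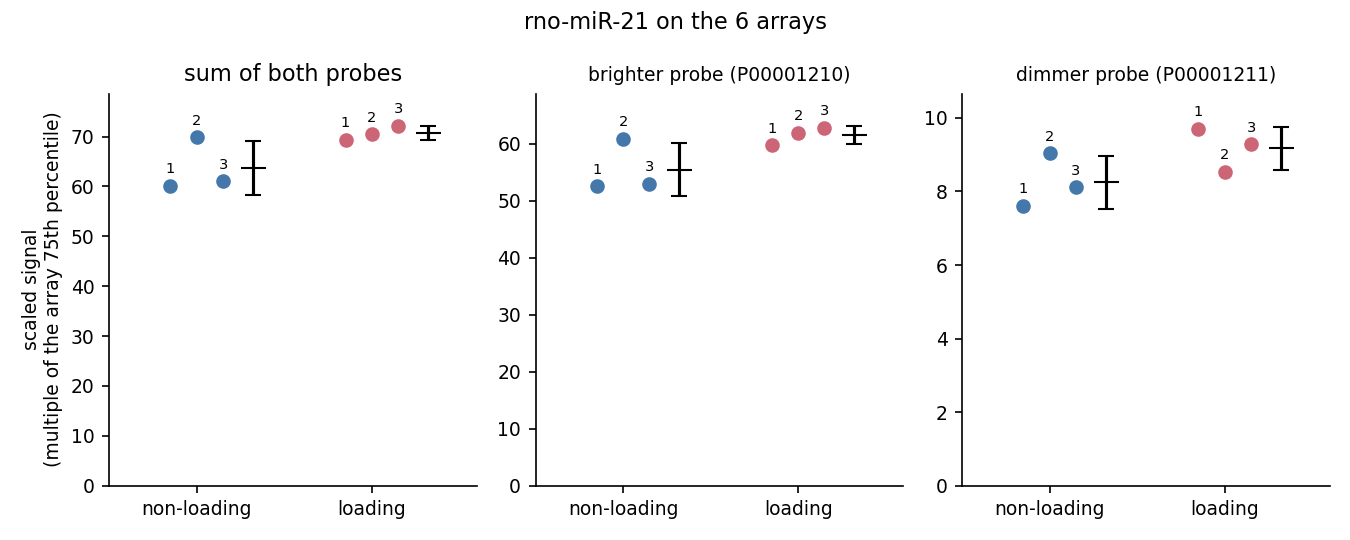
Scaled signal of rno-miR-21, as a multiple of the array's 75th percentile, for the sum of both probes and for each probe. Points are single arrays numbered by replicate, and black bars give the mean ± SD of 3 arrays. The sum lies between 60.1 and 72.1 on all arrays, and the non-loading and loading points overlap in each panel.

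The next miRNA by signal was far below. On non-loading replicate 1 it was let-7b, a member of the let-7 family that is abundant in differentiated cells, and miR-21 was 2.38 times as bright. On the other 5 arrays it was miR-199a-3p, a miRNA of mesenchymal cells. Against it, miR-21 was 2.94 and 2.69 times as bright on non-loading replicates 2 and 3. Under loading the ratio was 3.05, 2.90 and 3.03 for replicates 1, 2 and 3. The range of miR-21 over the arrays did not meet that of miR-199a-3p (22.7 to 24.3) or let-7b (17.8 to 25.3), whereas these 2 neighbours did not differ beyond their spread. The rank of miR-21 was also 1 on each array with the brightest probe of each miRNA, the mean of log2 probe signals and the total gene signal of the scanner software. Probes differ in how well they bind and miRNAs in their number of probes, so the order is one of signal and not of molecules.

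**Figure D2:**
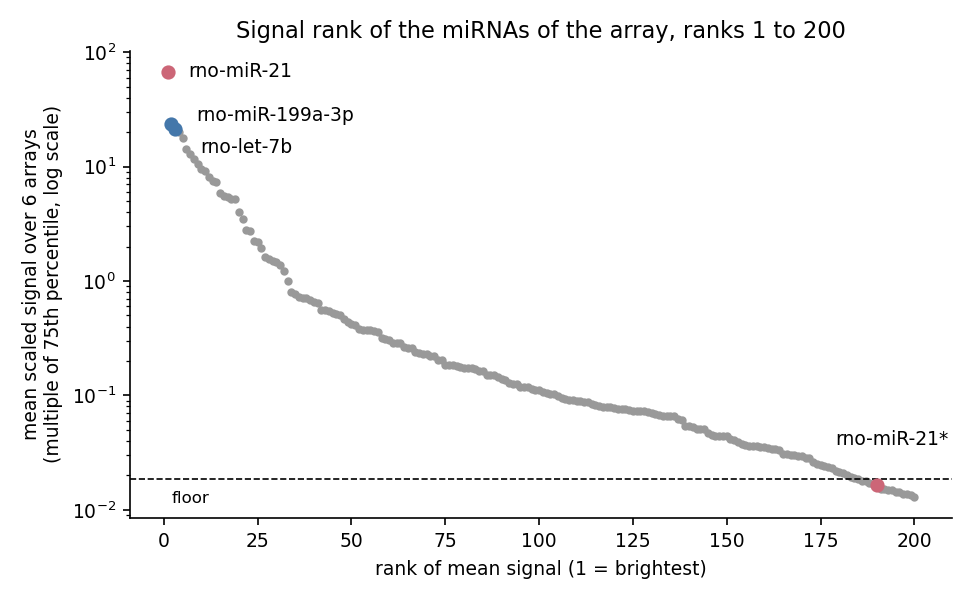
Mean scaled signal over the 6 arrays (log axis, multiple of the 75th percentile) against rank for the 200 brightest of 677 miRNAs. rno-miR-21 is at rank 1 with a mean of 67.2, above miR-199a-3p at 23.5, and rno-miR-21* is at rank 190, below the dashed floor.

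miR-21 alone carried a large part of the array signal. Its share of the summed signal of all detected miRNAs was 18.7%, 21.5% and 20.1% without loading and 21.8%, 21.1% and 21.7% with it. The mean share was 20.1% ± 1.40 (SD, n = 3) and 21.5% ± 0.373 (SD, n = 3), which did not differ beyond the spread between arrays (two-sided exact permutation test, p = 0.2, and 0.1 is the smallest p that 3 arrays against 3 can give). The 5 brightest miRNAs together held 45.2% to 47.3% of the signal of an array.

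rno-miR-21 was read by 2 probes with 10 spots each per array, and the software called each of these 120 spots well above background. The brighter probe, A_26_P00001210, was the brightest of the 1644 probes on each array. Its scaled signal was 52.5, 60.9 and 53.0 without loading and 59.7, 61.9 and 62.9 with loading. The dimmer probe, A_26_P00001211, ranked between 8 and 12, with 7.61, 9.03 and 8.11 without loading and 9.70, 8.53 and 9.28 with loading. Both probes had the same pattern in the non-loading group, with replicate 2 highest, but under loading the brighter probe was lowest on replicate 1 and the dimmer probe on replicate 2. The brighter probe exceeded the dimmer one 6.72-fold ± 0.185 (SD, n = 3) without and 6.73-fold ± 0.552 (SD, n = 3) with loading. Spots of the same probe varied within an array with a coefficient of variation of 6.07% to 13.7% for the brighter and 5.77% to 13.6% for the dimmer probe. The scanner did not reach its limit, since 0 spots were saturated and the brightest miR-21 spot was at 2.85% of the saturation value.

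The question of the comparison was which miRNAs respond to mechanical stretch in rTDSCs, and for miR-21 the difference was small. On the log2 scale the mean signal of rno-miR-21 was 5.99 ± 0.12 (SD, n = 3) in static cells and 6.14 ± 0.03 (SD, n = 3) in stretched cells. The log2 change was 0.15 (standard error 0.09, adjusted p = 0.709 in limma with Benjamini-Hochberg adjustment). That is a signal 1.11 times the non-loading one, with a 95% interval of 0.958 to 1.29. The interval leaves room for a slightly lower level as well as for a rise of up to 1.29-fold. The loading samples were above the non-loading mean on 3 of 3 arrays and above every non-loading array on 2 of 3 (exact permutation test, two-sided p = 0.2). By unadjusted p miR-21 ranked 26 among the 148 miRNAs, and by size of the rise 38. The median of all tested miRNAs was itself 0.06, and miR-21 lay 0.09 above it.

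Among all 148 miRNAs, 0 passed an adjusted p of 0.05 in limma, or 0% of those tested, and 14 had an unadjusted p below it, or 9.46%. These were 8.78% higher and 0.676% lower under loading. The groups did not overlap for 12.8% of the 148 miRNAs with loading higher and for 2.70% with loading lower, and miR-21 was among neither. With the test that the study's methods name, run on the same values, 2 miRNAs passed after adjustment and rno-miR-21 did not. Probe by probe the change was alike, at 0.15 for the brighter probe (standard error 0.08, adjusted p = 0.499 in limma over 194 probes) and 0.15 for the dimmer one (standard error 0.09, adjusted p = 0.566 in limma). Over these 194 probes, 3 passed an adjusted p of 0.05 in limma, or 1.55%, and no miR-21 probe did.

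**Figure D3:**
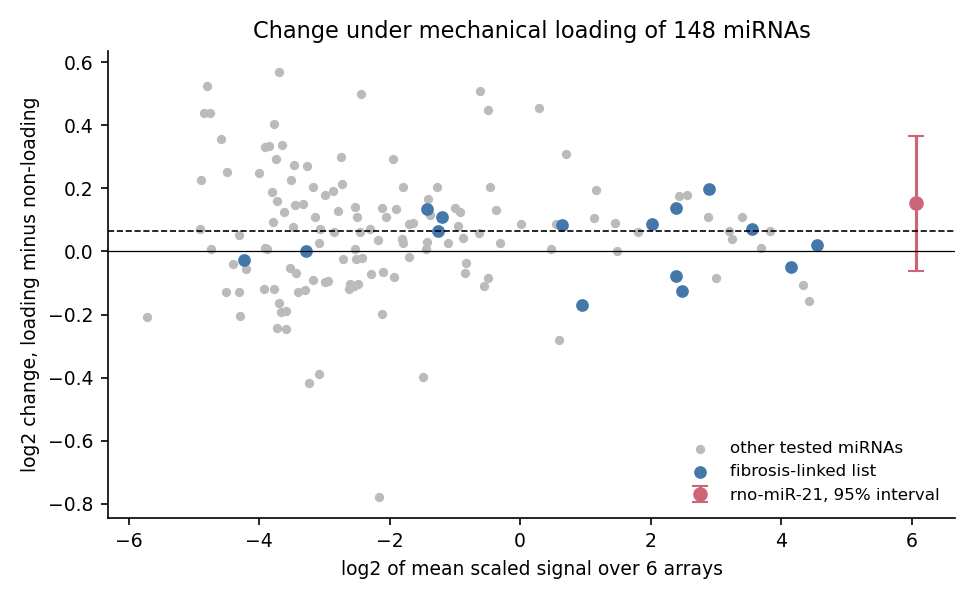
Log2 change (loading minus non-loading) of the 148 tested miRNAs against log2 of the mean scaled signal. rno-miR-21, in red with its 95% interval, is the rightmost point at 0.15, the dashed line marks the median of 0.06, and blue points are the 15 tested members of the fibrosis-linked list.

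The value was also taken within parts of the slide and under other settings. Within the slide's first column, loading replicate 2 exceeded non-loading replicate 1 by 0.23 on the log2 scale. Within the second column, loading replicate 3 exceeded non-loading replicate 2 by 0.05. In the first row, loading replicate 1 was 0.13 above the mean of the 3 non-loading arrays, while the second row held loading arrays only. Without non-loading replicate 2 the groups did not overlap and the change was 0.22 (unadjusted p = 0.0407, adjusted p = 0.427 in limma). That array was the highest of its group and the one above loading replicate 1. Leaving it out therefore separates the groups and raises the change by construction, and no conclusion is drawn from it. With any other array left out the change was 0.11 to 0.17, with an unadjusted p of 0.186 to 0.341 in limma. Leaving out loading replicate 1, the lowest of its group, likewise separated the groups by construction (change 0.17). With all 6 arrays the groups did not overlap under some settings either. These were outlier spots kept (0.15), normexp background correction with outlying background values replaced (0.16) and centring on the array median (0.16). With the 75th percentile taken over all probes the direction turned, to -0.0015, and with quantile normalization the change was 0.02. In quantile normalization the brightest probe of each array receives the same value by construction, and that probe was the miR-21 one on all 6 arrays.

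**Figure D4:**
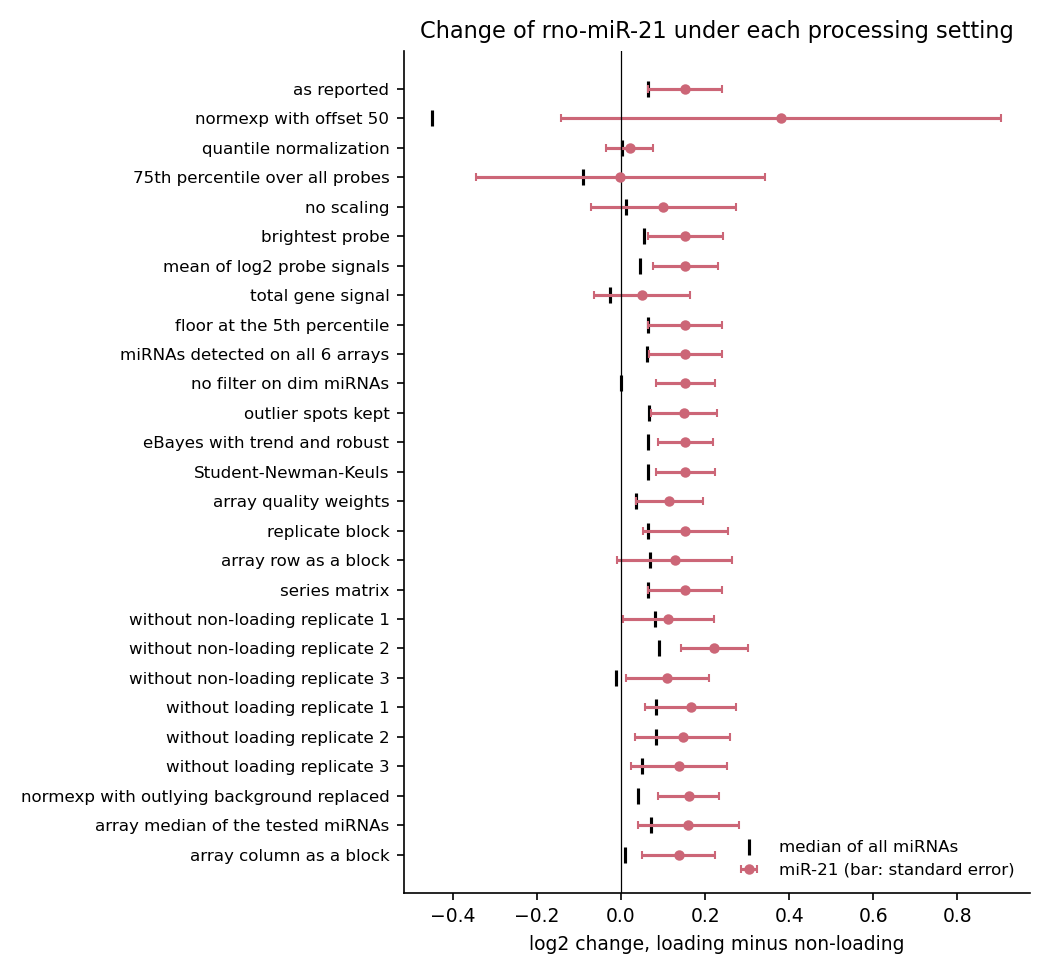
Log2 change of rno-miR-21 (red, bar of 1 standard error) and median change of all miRNAs tested (black tick) under each processing setting. The change lies between -0.0015 and 0.38, and miR-21 is above the median of all miRNAs under each setting shown. A factor per array shifts both alike, so settings that change only such a factor are no separate evidence for this.

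rno-miR-21*, the passenger arm, was near background. Its summed signal in percent of the 75th percentile was 0.347, 1.72 and -0.989 in the non-loading samples, a negative value being a spot signal below the subtracted background. Under loading it was 2.31, 3.04 and 3.48. The 3 loading samples were above the 3 non-loading samples without overlap (exact permutation test, two-sided p = 0.1, the smallest possible), as was so for 7.39% of all 677 miRNAs and for 5.86% of those that were not tested. The scanner software detected it on 1 of 3 non-loading and 2 of 3 loading arrays. It therefore did not pass the filter on dim miRNAs and was not tested with limma. By signal it ranked between 167 and 288 among the 677 miRNAs. Its neighbours in the mean order, miR-340-3p and miR-450a above it and miR-409-5p and miR-29c* below it, had means of 1.70%, 1.69%, 1.53% and 1.51% of the 75th percentile against 1.65% for rno-miR-21*, and their ranges over the arrays overlapped with its own.

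Of its 4 probes, each with 5 spots per array, 2 were below zero on every array. A_26_P00002010 lay between -1.98% and -0.793% of the 75th percentile, and A_26_P00002011 between -1.23% and -0.0595%, the latter with its groups apart although no spot of it was well above background. A_26_P00002012 lay between 0.698% and 1.80%, within the negative-control spots, of which 24.1% to 79.7% were below it. Of the 6 spots of rno-miR-21* that were well above background, 5 were on A_26_P00002013.

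On that probe the values were 1.83%, 2.03% and 1.05% of the 75th percentile without loading, and 2.65%, 2.74% and 2.65% under loading. Its mean was 1.64% ± 0.516 (SD, n = 3) and 2.68% ± 0.0523 (SD, n = 3), with all loading arrays above all non-loading ones (exact permutation test, two-sided p = 0.1, the smallest possible). Of all 1644 probes 9.06% were separated in this direction, and of the 1371 probes detected on no array 8.24%, so the separation was not rare on these arrays. Of the negative-control spots of the same array, 67.9%, 92.0% and 68.0% were dimmer than the probe in the non-loading samples. Under loading 99.5%, 95.7% and 99.3% were dimmer. Of its 30 spots, 1 without and 4 with loading were well above background, and 3 of these 4 were on loading replicate 1. No fold is given, because the loading signal did not reach the level that counts as detected on the non-loading arrays.

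The level of empty probes moved with this result in part. The median of these 1371 probes was -0.476%, -0.386% and -1.08% of the 75th percentile without loading and -0.343%, -0.637% and -0.254% with loading, so it was lowest on non-loading replicate 3, where A_26_P00002013 was lowest too. With this median subtracted on each array, a step chosen after the values were seen, the probe gave 2.31, 2.41 and 2.13 percentage points without loading. With loading it gave 2.99, 3.38 and 2.91, still without overlap. The share of all probes separated after this step was not counted, so how unusual this is stays unknown. Within the slide's columns the loading array was higher by 0.906 and 0.625 percentage points.

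**Figure D5:**
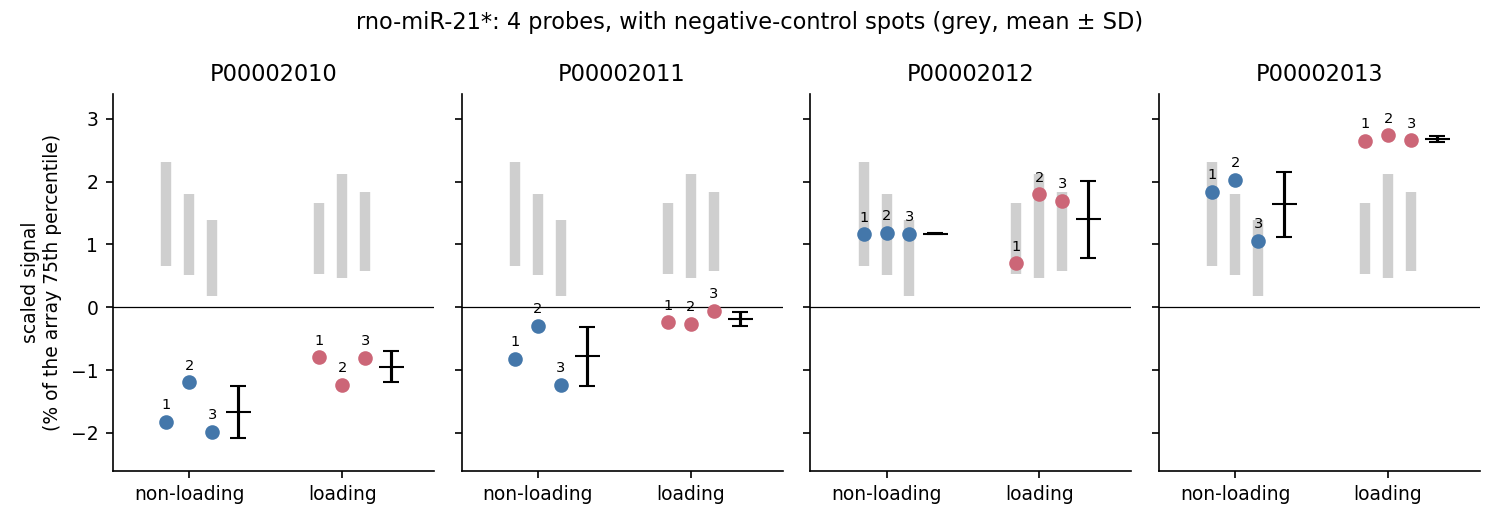
Scaled signal of the 4 probes of rno-miR-21* in percent of the array's 75th percentile, by group and numbered by replicate, with mean ± SD of 3 arrays in black. Grey bars give the mean ± SD of the negative-control spots of each array, and only P00002013 under loading (2.65% to 2.74%) is above these bars on all arrays of a group.

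The ratio between the arms could not be measured. On 4 of the 6 arrays the sum of the rno-miR-21* probes was below the lowest signal of a detected probe, which was taken in its place. On non-loading replicates 1 and 3 rno-miR-21 was then at least 1402-fold and 1407-fold higher in signal, and on loading replicate 2 at least 1346-fold. For non-loading replicate 2 the same step gave 2398-fold, which is no bound. There the 2 probes above zero together exceeded the level taken, and the probes below zero lowered the sum. The software also detected rno-miR-21* on that array. On loading replicates 1 and 3 the sum was above the lowest signal of a detected probe. There rno-miR-21 was 3009 and 2074 times that sum, which is no bound because the probes below zero lower it. These values compare signals of different probes, 2 for miR-21 and 4 for miR-21*, and are not ratios of molecules. No difference in the ratio between the groups is read as a measurement, since all 3 non-loading values of rno-miR-21* were under the floor of 1.87% of the 75th percentile. The floored difference is printed further below only to show how it moves with the processing.

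miR-21 was set beside other miRNAs known from fibroblasts and fibrosis, a list that holds the collagen-lowering miR-29 family, miR-199a and miR-214 of mesenchymal cells, and others. Of 20 names, 19 were on the array and 15 were tested. None passed the adjusted test in limma, and 1 of the 15 had an unadjusted p under 0.05, against 9.46% of all miRNAs tested. The changes ran from -0.17 to 0.20, with 10 positive and 5 negative, and their median of 0.06 was that of all tested miRNAs. In 3 of the 15, miR-24, miR-29a and miR-98, the groups did not overlap, each with loading higher, against 15.5% of all tested in either direction. The list was not tested as a set.

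The member with the smallest p was miR-24, a miRNA linked to cell-cycle control. It gave 6.64, 6.84 and 7.26 times the 75th percentile without and 8.06, 7.54 and 8.19 with loading, without overlap (log2 change 0.20, standard error 0.08, unadjusted p = 0.0459, adjusted p = 0.486 in limma). Among the collagen-lowering miRNAs, miR-29c was at 0.403, 0.432 and 0.429 without and 0.459, 0.429 and 0.475 with loading. miR-29b was at 4.34, 5.53 and 5.06 without and 5.62, 5.36 and 5.37 with loading. The groups of these 2 overlapped, and the log2 changes were 0.11 and 0.14 (adjusted p = 0.724 for both in limma). miR-29a, the brightest of the family and named here after its values were seen, was at 11.44, 11.34 and 11.44 without and 11.47, 12.18 and 12.32 with loading. All its loading arrays were above its non-loading ones, at a log2 change of 0.07 (standard error 0.07, adjusted p = 0.724 in limma). miR-26a, which is known to restrain growth, was at 1.86, 2.14 and 2.12 without and 2.04, 1.51 and 1.92 with loading, a log2 change of -0.17 (adjusted p = 0.724 in limma).

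The tested miRNA whose log2 signal followed that of miR-21 most closely over the 6 arrays was miR-27a, which lies in a gene cluster with miR-24, with r = 0.98. Its scaled signal was 4.79, 5.47 and 4.95 without and 5.56, 5.78 and 5.79 with loading, so that non-loading replicate 2 was again the highest of its group (log2 change 0.17, standard error 0.08, adjusted p = 0.606 in limma). miR-872 and miR-322 followed with r = 0.93 and 0.92. miR-872 was dim, between 0.0607 and 0.0924, and miR-322 lay between 0.369 and 0.451. These r values are descriptions over 6 points that share the slide, the scan and the scaling of each array, and they were the highest of 147.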

How the data were processed

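Total RNA of rTDSCs, 3 loading and 3 non-loading samples, was profiled on 1-colour Agilent rat miRNA arrays. The intensity of each spot, deposited as Feature Extraction (Agilent, 10.7.3.1) wrote it, is background-subtracted and not scaled between arrays. The deposited series matrix held the same intensities (largest difference 0). The study's methods speak of normalized data, but how they were normalized is not given in the sources used here.

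Spots that were controls or flagged as outliers were dropped (2.93% to 4.17% of an array's spots), spots averaged per probe, scaled to the 75th percentile over probes detected on all arrays (at least 50% of spots well above background), summed per miRNA, floored at the 1st percentile of detected miRNAs and put on the log2 scale. Loading was compared with non-loading by lmFit and eBayes of limma 3.58.1 in R 4.3.3, with Benjamini-Hochberg adjustment and a threshold of 0.05, and by exact permutation over arrays. Student–Newman–Keuls, the test of the study's methods, was an alternative. The limma step was tested on simulated data. Where miR-21* failed the filter, values per array and the permutation test were given. The number of arrays limits the precision. miRNAs were named by a rule: the members, miRNAs sharing a seed, the 2 nearest in rank on each side, the 3 most correlated, and listed miRNAs with an unadjusted p under 0.05 or, with fewer than 4 of these, the 4 with the smallest p. miR-29a and miR-98 were named after their values were seen. Members and lists were chosen with earlier results of these data known. Alternatives concerned background, scaling, probe summary, floor, filter, outlier spots, test, blocks and single arrays. Normexp used median signals.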

Additional observations from a re-analysis of the deposited data

How the results depend on the processing

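The change of rno-miR-21, 0.15 on the log2 scale, was positive under 9 of the 10 other settings that can move it and with each array left out (0.11 to 0.22). The other 7 settings change only the error, the floor, the filter or the source of the values and leave it as it is. Its adjusted p ran from 0.427 to 0.997 over all of these in limma and the methods' test. It turned to -0.0015 with the 75th percentile over all probes, where the median of all miRNAs was -0.09, and was 0.38 with normexp, where that median was -0.45. Its rank of 1 held under each probe summary tried.

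For rno-miR-21*, a floored log2 change of 0.63 became -0.60 with normexp, 6.57e-06 with probe signals averaged on the log2 scale, 0.0273 with the total gene signal, 0.0764 with a floor at the 5th percentile, 0.30 with the array's row on the slide as block and 0.064 with normexp once outlying background values were replaced. In the same order the loading minus non-loading difference of the floored log2 arm ratio, -0.48, which is no measurement, became 0.99, 0.15, 0.0234, 0.0765, -0.18 and 0.097, and it was -0.75 with the 75th percentile over all probes. With an array left out these ran from 0.51 to 0.73 and from -0.61 to -0.32. The mean rank of rno-miR-21* went from 190 to 529 with the total gene signal. As reported, miR-21* was at the floor on all 3 non-loading arrays. Why these values moved was not tested.

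An adjusted p under 0.05 was reached by 0 miRNAs as reported and with each array left out, and by 2 with quantile normalization, the brightest probe, log2-averaged probes, array quality weights, the methods' test, a trended robust eBayes, retained outlier spots, and a filter asking for detection on all 6 arrays. The number at an unadjusted p under 0.05, 14 as reported, was 0 with normexp, 1 with all probes, 4 without scaling, 8 with the total gene signal, 6 with the replicate block, 7 with the row as block, 8 with normexp after replacement, and it ran from 6 (without loading replicate 3) to 17 with an array left out, with 7 without loading replicate 1.

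Deviations of same-numbered arrays correlated at -0.69, -0.47 and 0.11 across miRNAs. Each value comes from 1 pair of arrays, so these cannot decide whether same-numbered samples share an animal or culture. With the replicate block the change of miR-21 was 0.15 (adjusted p = 0.850 in limma). Replacing outlying background values before normexp (0.16 for miR-21), centring on the array median (0.16), the array column as a block (0.14) and subtracting the level of empty probes were chosen after seeing the data. A block for slide or scan could not be run, as there was 1 of each. Signal over background limits miR-21*, for which 6 of 120 spots were well above background.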
